A study of Mus musculus with 4 samples.

Results

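Interleukin-17A (IL-17A) signalling was followed through 10 genes: the receptor chains Il17ra, Il17rc, Il17rd and Il17re, the adaptors Traf3ip2 and Traf6, the transcriptional regulators Nfkbiz, Cebpb and Cebpd, and the ribonuclease Zc3h12a. The genes were chosen by name, and every probe that the platform annotation gave to one of them was read. This gave 24 of the 45281 probes on the array, and 10 of the 12729 genes with a probe above the detection limit on at least 1 array. Of the 24 probes, 16 were above the limit on all 4 arrays, 2 on some arrays, and 6 on no array.

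Each array held the pooled RNA of 6 C57BL/6J mice, 8 to 12 weeks old, taken from the skin of the back (dorsal skin). The 4 groups were skin of mice given IL-17A mini-circle DNA with IMQ, IL-17A mini-circle DNA alone, GFP mini-circle DNA with IMQ, and GFP mini-circle DNA alone, with 1 array each. A mini-circle is a small circular expression vector. All mice were given one, so GFP mice were not untouched. IMQ commonly stands for imiquimod, which activates Toll-like receptor signalling and is put on mouse skin to provoke inflammation. The labels gave no dose, schedule or injection site for either agent. With 1 pooled array per group there was no measure of the spread between mice and no test, and "higher" and "lower" describe these 4 arrays.

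IL-17A binds a receptor that pairs IL-17RA with IL-17RC. The paired chains recruit the adaptor Act1, the product of Traf3ip2, which brings in the ubiquitin ligase TRAF6 and starts NF-kB and MAP kinase signalling. In keratinocytes, the main responders in skin, the inducible nuclear factor IκBζ (from Nfkbiz) and the C/EBP factors then act on antimicrobial and chemokine genes. Regnase-1, the product of Zc3h12a, degrades inflammatory transcripts and is known as a brake on this pathway.

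Values are deposited probe signals in linear units, from which a background had already been subtracted, so that a signal near 0 means no measured transcript. The detection limit was 11.8 for IL-17A with IMQ, 12.6 for IL-17A, 11.6 for GFP with IMQ and 12.7 for GFP skin. Differences are on the log2 scale after normexp background correction (offset 50) and quantile normalization. The offset shrinks the differences of dim probes. The shares of all genes given below include dim probes, which can make the difference of a bright member look rarer. A gene counts as apart at 2-fold, with the brighter array above its limit. Keratinocyte markers fitted the labelled tissue: 6 of 6 (Krt5, Krt14, Krt1, Krt10, Lor and Trp63) were above the limit on all 4 arrays. The GFP array without IMQ stood apart in its hair and macrophage genes. The summed signal of 8 detected hair shaft and root sheath genes was 24825 in IL-17A with IMQ, 15324 in IL-17A and 6299 in GFP with IMQ skin, against 25.7 in GFP skin. That of 8 macrophage genes was 7977, 8768 and 11957 in the same 3 groups, against 23209 in GFP skin. This GFP array stands in 3 of the 5 comparisons below.

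**Figure D1:**
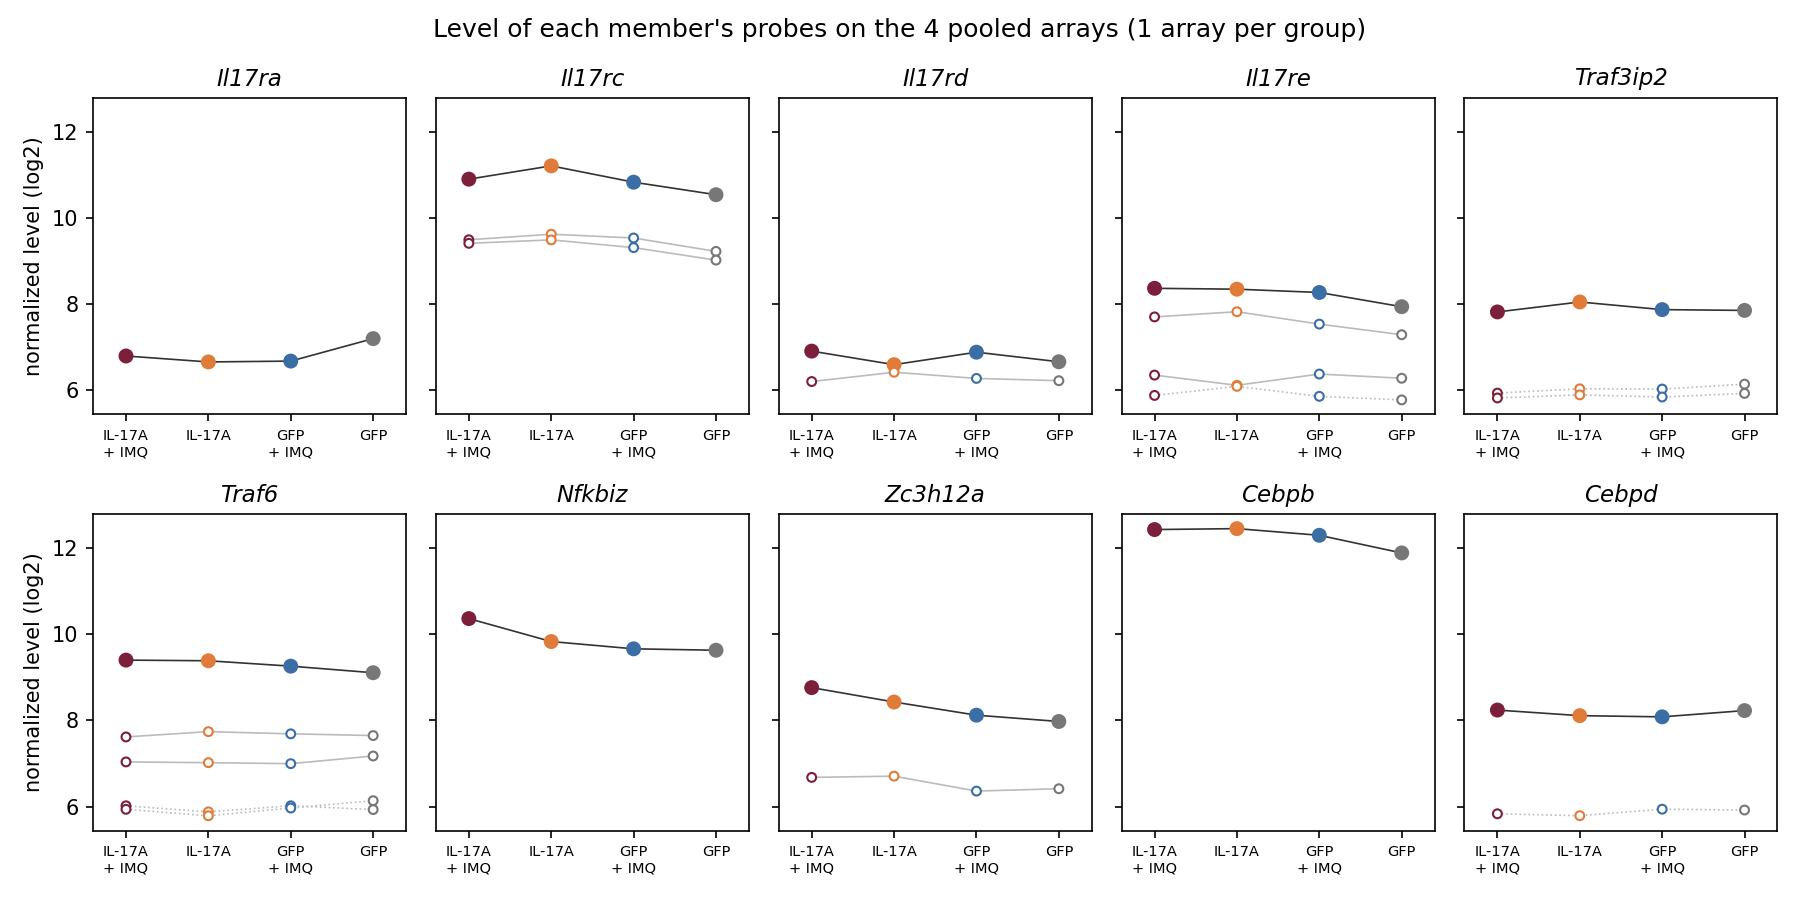
Normalized log2 level of all 24 member probes (vertical axis) on the 4 pooled arrays (horizontal axis, 1 array per group). Filled points joined by dark lines are the brightest probe of a gene, open points its other probes. Dotted lines join probes above the limit on no array. On the brightest probes, Il17ra is highest in GFP skin, and Nfkbiz and Zc3h12a are highest in IL-17A with IMQ skin.

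No member (0 of 10) was 2-fold apart in any of the 5 comparisons. Over all genes the shares past 2-fold on the higher and the lower side were 0.841% and 0.99% for IL-17A against GFP without IMQ, 1.06% and 0.283% for IL-17A against GFP under IMQ, 0.416% and 0.283% for IMQ in GFP skin, 0.165% and 0.0786% for IMQ in IL-17A skin, and 1.41% and 1.19% for both agents against GFP. At such shares a list of 10 genes need not hold any. At 1.5-fold, Il17rc was higher in IL-17A than in GFP skin without IMQ (1 of 10 members, where 2.13% of all genes were), and Nfkbiz and Zc3h12a were higher in IL-17A than in GFP skin under IMQ (2 of 10, where 2.52% of all genes were). The same 2 genes were at least 1.5-fold higher with both agents than in GFP skin (2 of 10, against 3.47% of all genes). No member (0 of 10) was 1.5-fold lower in any comparison, where 3.19%, 1.87%, 2.06%, 0.212% and 3.98% of all genes were, in the order given above, and 0 of 10 was 1.5-fold higher with IMQ in GFP skin or in IL-17A skin, against 1.55% and 0.966% of all genes. These 1.5-fold counts depend on the processing: the authors' normalized values put Il17ra past 1.5-fold lower in 3 comparisons, and the mean of a gene's probes left Nfkbiz as the only member higher, under IMQ and with both agents. The median difference of the members was 0.24 for IL-17A without IMQ, 0.13 for IL-17A under IMQ, 0.15 for IMQ in GFP skin, 0.07 for IMQ in IL-17A skin and 0.33 for both agents, while the median over all genes was 0.01, 0.00, 0.00, -0.00 and 0.01. With median scaling the members' medians for IMQ were 0.03 in GFP skin and 0.00 in IL-17A skin. The medians over all genes were then -0.075 and -0.055.

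**Figure D2:**
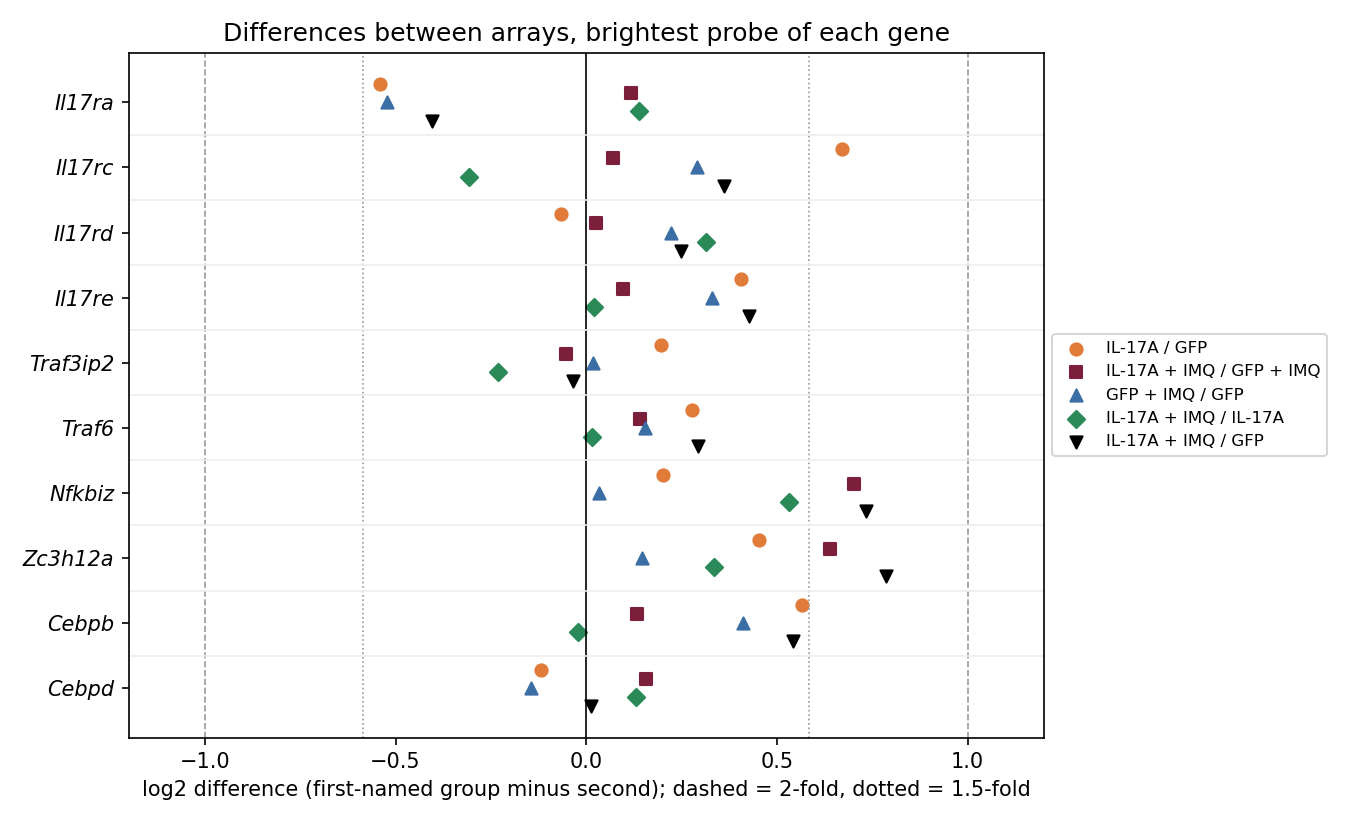
Log2 difference of each member's brightest probe (horizontal axis; first-named array minus second) in 5 comparisons between single pooled arrays. Every point lies inside the dashed 2-fold lines; Il17rc, Nfkbiz and Zc3h12a pass the dotted 1.5-fold line on the higher side, and Il17ra lies furthest to the left.

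Il17ra encodes the chain shared by several receptors of the family. Its single probe had a signal of 45.7 in IL-17A with IMQ, 37.8 in IL-17A and 35.7 in GFP with IMQ skin, against 87.4 in GFP skin. The 3 treated arrays were thus close to each other and all below the GFP array. The log2 difference was -0.54 for IL-17A against GFP without IMQ, -0.52 for IMQ against none in GFP skin and -0.40 for both agents against GFP. Of all genes, 3.80%, 3.00% and 8.33% were at least as low in these comparisons. Under IMQ, IL-17A skin was 0.12 above GFP skin. The probe is dim, so the size depends on the scale: the authors' normalized values gave -0.85 and -0.80 for the first 2 differences, and quantile-normalized signals with a floor of 16 and no background correction gave -1.17 and -1.12, past 2-fold. Of the 8 detected macrophage genes, 7 were also highest in GFP skin and Cd14 was highest in IL-17A with IMQ skin. At least 2-fold lower were 6 of 8 in IL-17A against GFP (median -1.36) and 0 of 8 with IMQ in GFP skin (median -0.66). Cd68, a further macrophage gene, was above the limit on no array. The 6 fibroblast genes were highest in GFP skin too, at a summed signal of 19207 in IL-17A with IMQ, 18588 in IL-17A and 18949 in GFP with IMQ skin, against 27693 in GFP skin. The part of either list in the Il17ra values was not tested. In bulk skin, fewer cells of a type and less RNA per cell cannot be told apart.

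Il17rc, the partner chain of the IL-17A receptor, went the other way. Its brightest probe had a signal of 1802 in IL-17A with IMQ, 2445 in IL-17A and 1607 in GFP with IMQ skin, against 1508 in GFP skin. The IL-17A array without IMQ was the highest and the GFP array the lowest. IL-17A skin was 1.59-fold above GFP skin (0.67 on the log2 scale), a difference that 1.56% of all genes reached. The other Il17rc probes gave 652 and 613 in IL-17A with IMQ, 778 and 703 in IL-17A, and 612 and 519 in GFP with IMQ skin, against 553 and 474 in GFP skin. All 3 probes were above the limit on every array and all were higher in IL-17A than in GFP skin, from 0.40 to 0.67. They were also higher with IMQ in GFP skin, from 0.29 to 0.31. Over the settings tried, the IMQ difference of the gene in GFP skin ran from 0.13 to 0.30. Under IMQ the IL-17A and GFP arrays lay close together, from -0.04 to 0.10 over the 3 probes.

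Il17re encodes the chain that pairs with IL-17RA to bind IL-17C, a cytokine made by epithelial cells. Its brightest probe had a signal of 260.1 in IL-17A with IMQ, 279 in IL-17A and 224 in GFP with IMQ skin, against 190.2 in GFP skin. A second probe had 142, 172 and 112 in the same 3 groups, against 97.2 in GFP skin. On both probes GFP skin without IMQ was the lowest of the 4 arrays, with IL-17A skin 0.41 and 0.53 above it and GFP with IMQ skin 0.33 and 0.25 above it. Under IMQ, IL-17A skin was 0.10 and 0.17 above GFP skin. Another probe, which the annotation assigns to another Il17re transcript, was near the limit and did not follow them: 17.0 in IL-17A with IMQ, 5.05 in IL-17A and 17.7 in GFP with IMQ, against 14.4 in GFP skin. The fourth was above the limit on no array.

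Il17rd, also known as Sef, is a receptor-like chain reported to modulate fibroblast growth factor and IL-17 signalling. Its brighter probe had a signal of 54.3 in IL-17A with IMQ, 33.3 in IL-17A and 50.1 in GFP with IMQ skin, against 39.2 in GFP skin. Both IMQ arrays were above both arrays without IMQ, by 0.31 in IL-17A skin and 0.22 in GFP skin. The dimmer probe did not show this: it had 9.11 and 12.4 in the IMQ arrays (IL-17A, then GFP), against 21.7 and 11.1 without IMQ, and was above the limit on 2 arrays.

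Il17re and Il17rc are neighbours on chromosome 6 in the RefSeq annotation, with no coding gene between them, and both were lowest in GFP skin on every probe above the limit on all arrays. The bases just before their starts are shown for this reason, each 5′ to 3′ and credited to RefSeq, build GRCm38.p6, both on the plus strand: chr6:113458521-113458698 for Il17re (178 bases, ending where its gene model begins) and chr6:113471205-113471454 for Il17rc (250 bases). Capitals mark matches, on either strand, to an NF-kB type pattern (GGG and CC with any 5 bases between them) or a C/EBP type pattern TTNNGNAA; an AP-1 type pattern TGANTCA was also searched.
Il17re: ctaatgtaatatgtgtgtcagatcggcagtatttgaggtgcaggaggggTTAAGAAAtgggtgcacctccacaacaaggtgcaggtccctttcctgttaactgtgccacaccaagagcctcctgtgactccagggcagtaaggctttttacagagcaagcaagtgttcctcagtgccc
Il17rc: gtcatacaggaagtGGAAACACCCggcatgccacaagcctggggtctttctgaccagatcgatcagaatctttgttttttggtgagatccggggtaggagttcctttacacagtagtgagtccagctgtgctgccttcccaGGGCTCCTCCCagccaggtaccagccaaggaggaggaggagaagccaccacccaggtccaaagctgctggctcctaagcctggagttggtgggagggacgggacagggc
The Il17rc window held 3 matches to the NF-kB type pattern, some overlapping, and 0 to the others, while the Il17re window held 1 match to the C/EBP type pattern and 0 to the others. Of all 32851 promoter windows of 250 bases in the table, 45.8% held the first pattern, 36.8% the second and 6.75% the third; over windows of 178 bases the shares were 32.9%, 29.8% and 4.88%. These loose patterns are common, and a match is a description of letters and no binding site.

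The adaptors differed little between arrays. Traf3ip2, which encodes Act1, had a signal of 159 in IL-17A with IMQ, 212 in IL-17A and 156 in GFP with IMQ skin, against 174 in GFP skin. IL-17A skin without IMQ was the highest, 0.20 above GFP skin, and IMQ in IL-17A skin went with a difference of -0.23. Its other 2 probes were above the limit on no array. Traf6 had a signal of 608 in IL-17A with IMQ, 645 in IL-17A and 499.7 in GFP with IMQ skin, against 506 in GFP skin. IL-17A skin was 0.28 above GFP skin without IMQ and 0.14 above it under IMQ. The 3 Traf6 probes above the limit on all arrays did not have 1 direction: for IL-17A against GFP without IMQ they ran from -0.15 to 0.28.

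Nfkbiz had its highest value where both agents were given. IκBζ, its product, is a nuclear cofactor of NF-kB needed for many secondary response genes. The single probe had a signal of 1225 in IL-17A with IMQ, 903 in IL-17A and 669.7 in GFP with IMQ skin, against 755 in GFP skin. Both IL-17A arrays were above both GFP arrays. Under IMQ, IL-17A skin was 1.63-fold above GFP skin (0.70 on the log2 scale), which 1.82% of all genes reached, and without IMQ it was 1.15-fold above (0.20). IMQ went with a difference of 0.53 in IL-17A skin, reached by 1.16% of all genes, and of 0.03 in GFP skin, which median scaling turned to -0.11.

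On its brighter probe, Zc3h12a was also highest in skin given both agents. Its brighter probe had a signal of 364 in IL-17A with IMQ, 299 in IL-17A and 196 in GFP with IMQ skin, against 196 in GFP skin. Both IL-17A arrays were clearly above the GFP arrays, which were nearly equal. IL-17A skin was 1.56-fold above GFP skin under IMQ (0.64 on the log2 scale, reached by 2.13% of all genes) and 1.37-fold above it without IMQ (0.45, reached by 4.27%). With both agents it was 1.72-fold above GFP skin (0.79). The dimmer probe had 37.3 in IL-17A with IMQ, 41.2 in IL-17A and 16.7 in GFP with IMQ skin, against 22.4 in GFP skin, and was likewise higher in IL-17A skin, by 0.32 under IMQ and 0.29 without.

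Immediate early and heat shock genes, read as 1 list, also respond to tissue handling. Of the 9 detected, 6 had their highest signal in IL-17A with IMQ skin, the heat shock gene Hspa1b among them. Fosb and Atf3 had it in GFP skin and the heat shock gene Hspa1a in IL-17A skin. Their summed signal over 9 detected genes was 13395 in IL-17A with IMQ, 11049 in IL-17A and 6542 in GFP with IMQ skin, against 8225 in GFP skin. Under IMQ, 3 of the 9 were at least 2-fold higher in IL-17A than in GFP skin, with a median of 0.61, and without IMQ 0 of 9 were, with a median of 0.14. The 7 detected neutrophil genes had a summed signal of 1531, 879 and 216 in the same 3 groups, against 396 in GFP skin, with 4 of the 7 at least 2-fold higher in IL-17A than in GFP skin under IMQ and Ly6g above the limit on no array. Of these genes 5 were highest in IL-17A with IMQ skin, Mpo in IL-17A skin and Elane in GFP skin. The part of either list in the Nfkbiz and Zc3h12a values was not tested.

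Of the C/EBP factors, Cebpb differed between arrays more than Cebpd. Both encode leucine zipper transcription factors known to bind promoters of IL-17 target genes. Cebpb had a signal of 5254 in IL-17A with IMQ, 5799 in IL-17A and 4597 in GFP with IMQ skin, against 4063 in GFP skin. The GFP array was the lowest, with IL-17A skin 1.48-fold above it (0.56 on the log2 scale, reached by 2.37% of all genes). GFP with IMQ skin was 1.33-fold above it (0.41, reached by 4.01%), a difference that ran from 0.22 to 0.42 over the settings tried. Under IMQ, IL-17A skin was 0.13 above GFP skin, and IMQ in IL-17A skin went with -0.02. Cebpd had a signal of 233 in IL-17A with IMQ, 226 in IL-17A and 189 in GFP with IMQ skin, against 246 in GFP skin. Its differences lay between -0.15 and 0.16 in all 5 comparisons, and its second probe was above the limit on no array.

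The sequence before the start is shown for the ribonuclease and the C/EBP gene that were higher in IL-17A skin, from RefSeq, build GRCm38.p6: chr4:125127882-125128131 on the minus strand for Zc3h12a and chr2:167688665-167688914 on the plus strand for Cebpb, each 250 bases and with matches in capitals as above.
Zc3h12a: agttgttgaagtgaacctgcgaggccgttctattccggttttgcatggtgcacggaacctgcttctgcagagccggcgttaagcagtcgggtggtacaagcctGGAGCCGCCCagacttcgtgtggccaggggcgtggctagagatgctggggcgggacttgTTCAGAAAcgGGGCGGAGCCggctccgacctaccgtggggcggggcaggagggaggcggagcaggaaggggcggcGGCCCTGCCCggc
Cebpb: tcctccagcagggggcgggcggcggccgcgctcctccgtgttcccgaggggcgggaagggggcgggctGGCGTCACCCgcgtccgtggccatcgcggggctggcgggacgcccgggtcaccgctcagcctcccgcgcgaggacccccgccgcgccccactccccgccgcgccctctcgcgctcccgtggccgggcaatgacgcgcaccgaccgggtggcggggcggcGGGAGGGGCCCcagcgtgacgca
The Zc3h12a window held 3 matches to the NF-kB type pattern and 1 to the C/EBP type pattern. The Cebpb window held 3 matches to the NF-kB type pattern, some overlapping, and 0 to the C/EBP type pattern, and neither held the AP-1 type pattern. The windows of Traf6 (250 bases) and Il17rd (213 bases), not shown, each held 2 matches to the NF-kB type pattern. That of Traf6 also held 1 to the C/EBP type pattern. Of the 10 genes, 6 had a promoter window in the table. Those without one were Il17ra, Traf3ip2, Nfkbiz and Cebpd.

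Il17rc, Il17re and Cebpb were higher with either agent alone than in GFP skin. The differences were 0.67, 0.41 and 0.56 with IL-17A, 0.29, 0.33 and 0.41 with IMQ, and 0.36, 0.43 and 0.54 with both. Over the settings tried, those with IMQ alone went down to 0.13, 0.22 and 0.22. The 6 keratinocyte genes had a median of 0.21 for IMQ in GFP skin, with 5 above 0 and 1 below. Nfkbiz and Zc3h12a were higher with IL-17A, by 0.20 and 0.45 without IMQ and by 0.70 and 0.64 under IMQ, while IMQ in GFP skin went with 0.03 and 0.15. The IL-17A difference under IMQ minus that without IMQ was 0.50 for Nfkbiz and 0.19 for Zc3h12a, against -0.60 for Il17rc, -0.31 for Il17re and -0.43 for Cebpb. The hair genes, at 25.7 in GFP skin, had their lowest summed signal there as Il17rc, Il17re and Cebpb did. Their order was otherwise different. The hair genes were highest in IL-17A with IMQ skin, at 24825 against 15324 in IL-17A skin. Il17rc, Il17re and Cebpb had their highest signal in IL-17A skin. The part of the hair genes in these values was not tested. The differences of differences had no test, and each rests on all 4 arrays. The GFP array had the lowest normalized level in 6 of the 10 members, where it had the lowest in 30.9% of all genes. In the deposited signals before normalization it was lowest in 3, and the GFP with IMQ array was lowest in 6.

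**Figure D3:**
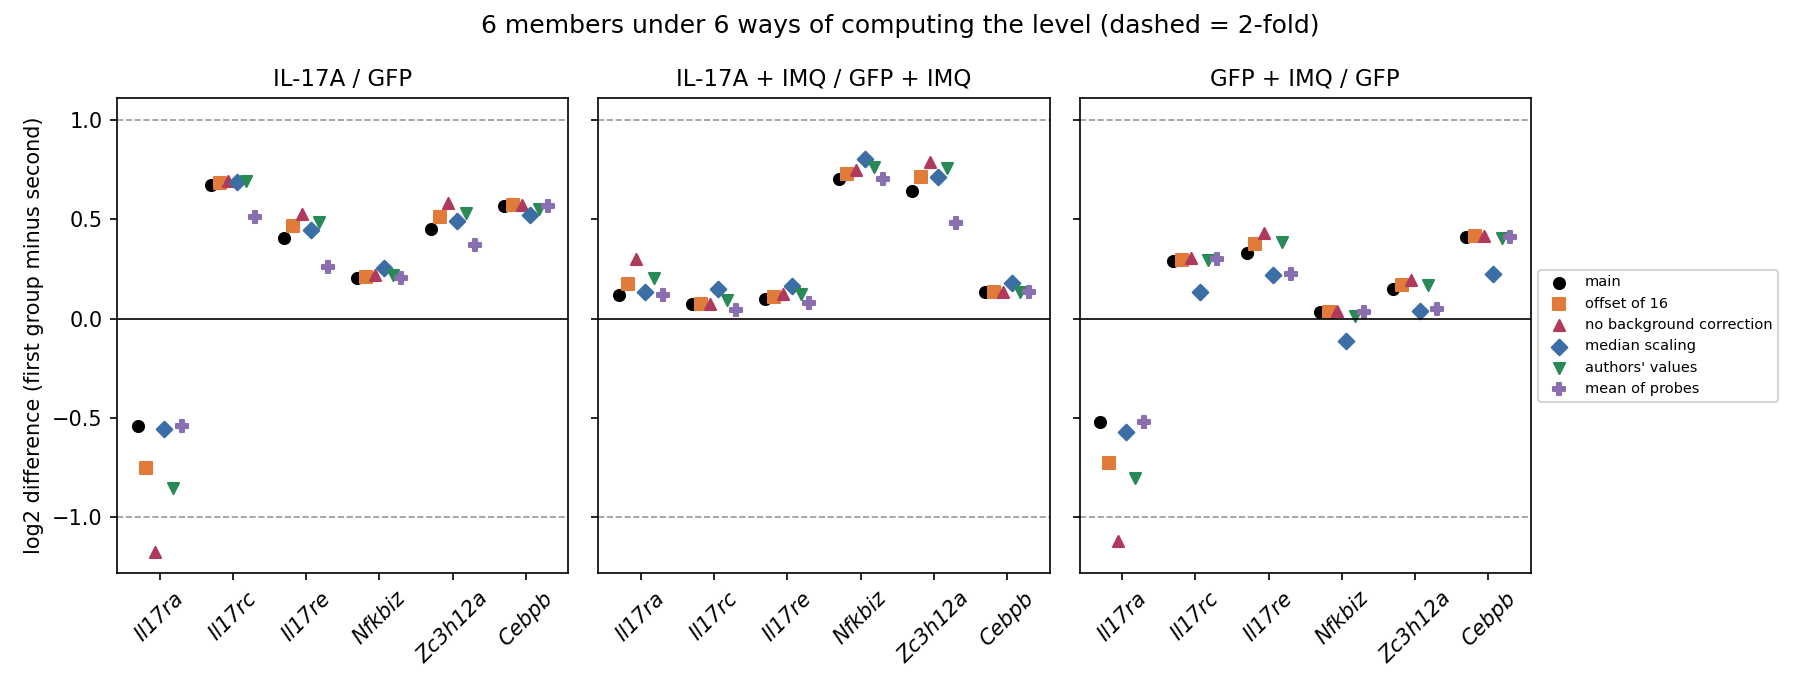
Log2 difference (vertical axis) of 6 members under 6 ways of computing the level, in 3 comparisons between single arrays. For IL-17A against GFP without IMQ, Il17rc runs from 0.51 to 0.69, Nfkbiz from 0.20 to 0.25 and Cebpb from 0.52 to 0.57. Il17ra spreads from -0.54 to -1.17 there. Under IMQ, Il17rc runs from 0.04 to 0.15, Nfkbiz from 0.70 to 0.80 and Cebpb from 0.13 to 0.18. For IMQ in GFP skin, Il17rc runs from 0.13 to 0.30, Nfkbiz from -0.11 to 0.04 and Cebpb from 0.22 to 0.42.

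Other genes of the pathway were read from lists of ligands, receptors, adaptors and kinases, messenger RNA stabilisers, feedback genes, transcription factors and targets. Outside the 10 members they held 63 genes, of which 49 were detected. Without IMQ, 6 of 49 were at least 2-fold higher in IL-17A than in GFP skin and 0 were lower, and under IMQ 11 of 49 and 0. All of these were targets. Among 15 detected adaptors and kinases, members included, 0 were 2-fold apart in either comparison, and their medians were 0.12 and 0.06. Among 12 detected feedback genes and inhibitors 0 were 2-fold apart, with medians of 0.06 without IMQ and 0.19 under IMQ. Dusp1, a MAP kinase phosphatase, and Zfp36, an RNA-destabilising protein, came closest under IMQ, at signals of 4116 and 2039 in IL-17A skin, against 1952 and 996 in GFP skin (0.96 and 0.90 on the log2 scale). Both were named after their values were seen, and both are also immediate early genes. Of the ligands, Il17a was above the limit in IL-17A with IMQ skin alone, at a signal of 14.4. Whether the Il17a probe detects the mini-circle's transcript was not known. Il17b, Il17c, Il17f and Il25 were above the limit on no array.

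As a list, the targets, which are known products of IL-17 signalling in epithelia, had far larger differences than the signalling genes. Of 15 detected, the median log2 difference between IL-17A and GFP skin was 0.86 without IMQ and 1.56 under IMQ, with 0.13 for IMQ in GFP skin and 0.72 for IMQ in IL-17A skin. At least 2-fold higher were 6, 11, 0 and 5 of the 15 in these 4 comparisons, and 0 were lower. Not all targets followed: between IL-17A and GFP skin, Ccl20 was at -0.08 without IMQ and -0.002 under IMQ. Csf3, near the limit, was at 0.16 and -0.14. Cxcl5, Csf2, Il36g and Defb3 were listed but not detected. S100a8, a calprotectin subunit, had a signal of 21448 in IL-17A with IMQ and 9773 in IL-17A skin, against 974 in GFP with IMQ and 1011 in GFP skin. Cxcl1, a neutrophil-attracting chemokine, had 1020 and 648 in the IL-17A arrays with and without IMQ, against 66.8 and 25.3 in the GFP arrays with and without it. Lcn2, an iron-binding antimicrobial protein, had 3228 and 1547 in the IL-17A arrays, against 522 and 293 in the GFP arrays. For S100a8, Cxcl1 and Lcn2 both IL-17A arrays were far above both GFP arrays. The summed neutrophil signal was also higher there, at 1531 and 879 with and without IMQ, against 216 and 396 in the GFP arrays. The part of neutrophils in the target values was not tested. The target list was chosen with earlier results of these data known, so its direction is no independent evidence.

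**Figure D4:**
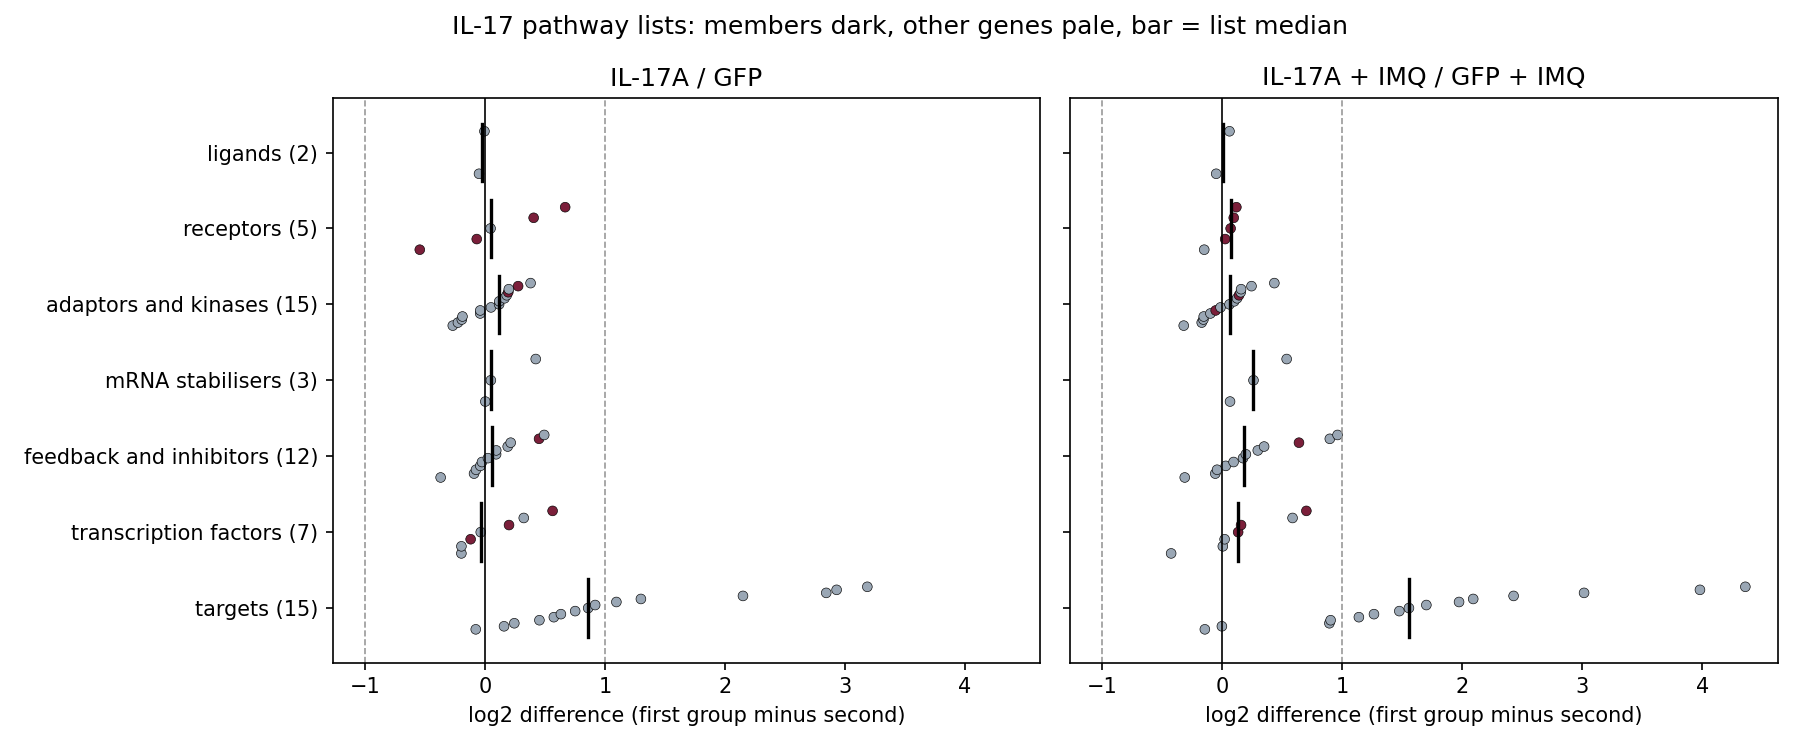
Log2 difference between IL-17A and GFP skin (horizontal axis) without IMQ and under IMQ for every detected gene of 7 pathway lists (rows, number of genes in brackets). Members are dark, other genes pale, and bars are list medians; the targets reach 4.36 under IMQ, while every gene of the other lists stays inside the dashed 2-fold lines.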

How the data were processed

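Total RNA of 4 pools of 6 mice, 1 pool per group, was hybridised to Illumina mouse bead arrays after QIAGEN RNeasy extraction and Ambion MessageAmp labelling, per the labels' protocols. A deposited table gave each probe's linear intensity, not normalized. Between 32.3% and 33.7% of an array's values were below 0, so a background had been subtracted, in a way not given in the sources used here. The other deposited table contained log2 values that the authors had normalized, likewise with no method given. Its columns had medians of 4.82 to 4.83, and the scale was found by comparison with the intensities.

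The intensities were corrected with limma 3.58.1 (R 4.3.3, normexp, offset of 50) and quantile-normalized, then log2 was taken. Detection p-values and control probes were not used here; instead, the values below 0 were mirrored at 0 and the detection limit was set so that a share of 0.01 of such noise exceeded it, which put from 45.2% to 45.8% of probes above it. Each gene was represented by its brightest probe above the limit on at least 1 array. Gene names came from the platform annotation, in which 34885 probes had 1 symbol, 18 had several and 10378 had none. Counts and figures were made in Python 3.11.15 with numpy 2.4.6, pandas 2.3.3 and matplotlib 3.10.9. The steps were also run on simulated data, whose changes were larger than 2-fold. That run does not bear on the smaller differences of the members. No test between groups was possible with 1 array each, and the number of arrays limits the precision. Members, lists and settings were chosen with earlier results of these data known. All members were named; of the other pathway genes, those 2-fold apart, up to 4 a list, could be named, and the genes most like a member were to be named only for members 2-fold apart, of which there were 0.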

Additional observations from a re-analysis of the deposited data

Results flagged for a closer look

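Il17ra had opposite directions in 2 settings of the same contrast. IL-17A skin was below GFP skin without IMQ (-0.54 on the log2 scale) and above it under IMQ (0.12). The difference of 0.66 between these ran from 0.66 to 1.47 over the settings tried. The value under IMQ rests on signals of 45.7 and 35.7 on a single dim probe. The noise of those arrays, from the mirrored values below 0, had standard deviations of 5.79 and 5.52. The same 4 arrays give IMQ against none as 0.14 in IL-17A skin and -0.52 in GFP skin, which is again 0.66. For Il17rc, IMQ against none was -0.31 in IL-17A skin and 0.29 in GFP skin, a difference of -0.60. Neither difference was tested, since each array stands alone in its group.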

How the results depend on the processing

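The count of members 2-fold apart was 0 in every comparison with an offset of 16, median scaling, the authors' values and the mean of a gene's probes. The filters on dim probes and the 3-fold threshold could not alter it, since each member's brightest probe passed the limit on all 4 arrays and 0 passed 2-fold. With no background correction and a floor of 16, 1 member, Il17ra, was 2-fold lower in IL-17A than in GFP skin without IMQ (-1.17) and 1 with IMQ in GFP skin (-1.12). That setting drops the correction and its offset and adds a floor at once, so which of these matters was not tested. At 1.5-fold the counts of higher members were 1 and 2 for IL-17A without and under IMQ and 2 for both agents. Averaging the probes of each gene gave 0, 1 and 1: Il17rc was at 0.51, and Zc3h12a at 0.48 and 0.52. Il17ra was 1.5-fold lower in 2 comparisons with an offset of 16, and in 3 with the authors' values or the floor of 16, where Il17rd also passed 1.5-fold higher in 2. These 1.5-fold counts by setting were chosen after seeing the data. The members' median ran from 0.20 to 0.29 for IL-17A without IMQ, 0.10 to 0.17 under IMQ, 0.03 to 0.18 for IMQ in GFP skin, 0.00 to 0.10 in IL-17A skin and 0.21 to 0.46 for both agents. Of the members' single differences, 2 moved by over 1.5-fold, both of Il17ra with the floor of 16. Ranges over settings for IL-17A against GFP skin were 0.51 to 0.69 for Il17rc without IMQ, and 0.70 to 0.80 for Nfkbiz and 0.48 to 0.79 for Zc3h12a under IMQ. The IMQ difference of Il17rd in IL-17A skin ran from 0.05 to 0.79. In GFP skin the IMQ difference ran from 0.13 to 0.30 for Il17rc, 0.22 to 0.43 for Il17re and 0.22 to 0.42 for Cebpb. Signs of Il17rd, Traf3ip2, Traf6, Il17re, Nfkbiz and Cebpd near 0 changed in some settings. Over all genes, the counts at least 2-fold higher and lower ran from 54 to 300 (107 as reported) and from 101 to 367 (126) for IL-17A without IMQ, from 75 to 331 (135) and from 28 to 208 (36) under IMQ, from 14 to 204 (53) and from 33 to 231 (36) for IMQ in GFP skin, from 16 to 115 (21) and from 5 to 84 (10) for IMQ in IL-17A skin, and from 109 to 412 (179) and from 122 to 436 (152) for both agents; each highest count came with no background correction and a floor of 16. No paired analysis was possible because each group has 1 array.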

Other observations

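The ligand gene Il17d, named after its values were seen, had a signal of 19.9 in IL-17A with IMQ and 21.9 in GFP with IMQ skin, against 42.7 in IL-17A and 44.2 in GFP skin. Both IMQ arrays were thus below both arrays without IMQ, by 0.32 in IL-17A skin and 0.28 in GFP skin on the log2 scale. Bcl3, an atypical IκB protein related to IκBζ and likewise named after its values were seen, had 76.6 and 76.9 in the IL-17A arrays with and without IMQ, against 28.8 and 48.4 in the GFP arrays. Elavl1, chosen in the same way, encodes the RNA-stabilising protein HuR and had 1030 and 936 in the IL-17A arrays with and without IMQ, against 633 and 887 in the GFP arrays. These are values of single arrays with no test.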
